A study of Ostrinia furnacalis with 9 samples.

Results

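H3K9me3 peaks of pre-diapause heads were compared with those of diapause heads in the Asian corn borer, Ostrinia furnacalis, a moth whose larvae can arrest development in diapause. The members are all peaks of the 2 deposited lists on nuclear scaffolds, 7225 at pre-diapause and 3504 at diapause, or 10729 of the 29330 peaks in the series. A single peak of each list was left out because it lay on the one sequence with an NC_ name. Chromatin came from larval heads and was immunoprecipitated with an antibody against H3K9me3. Pre-diapause larvae had been kept from the fourth instar for 20 days at 20 °C and 12 h of light a day, and diapause larvae for at least 30 days under the same regime. The larvae descended from a stock collected in a corn field and reared at 27 °C and 16 h of light a day, and how non-diapause larvae were reared apart from this is not stated. The series also holds non-diapause H3K9me3 and the mark H3K27me3 at each stage, which are used here as further readouts of the same places. How many heads went into a library is not given in the sources used here.

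Trimethylation of lysine 9 on histone H3 is the classical mark of constitutive heterochromatin. It is bound by HP1 proteins and is known to spread along chromatin into domains that silence transposons and other repeats. In insects it lies over dispersed repeat copies, and H3K27me3, laid down by Polycomb complexes, is the other main repressive mark. Diapause is a hormonally controlled arrest, entered in this species in response to short days.

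A peak is called kept when it shares at least 1 bp with a peak of the other stage, and not called when it does not. With 1 list a stage, the stages cannot be compared against the spread between replicates, and no test was made. Intervals in parentheses are exact Clopper-Pearson 95% intervals for shares and order-statistic 95% intervals for medians. They cover counting error only and treat neighbouring peaks as independent. The lists carry no read totals, so depth is unknown, and a place that was not called may still carry the mark at a level below the threshold of the calls. No genome sequence and no placed genes were at hand, so peaks are described by scaffold position.

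Most pre-diapause peaks were not called at diapause, and most diapause peaks were kept from pre-diapause. Of the 7225 pre-diapause peaks 4604 had no diapause peak, or 63.7% (62.6–64.8). Of the 3504 diapause peaks 854 had no pre-diapause peak, or 24.4% (23.0–25.8). Measured in bases, peaks covered 5.23 Mb at pre-diapause and 2.33 Mb at diapause and shared 1.71 Mb, which was 32.6% of the first and 73.3% of the second. The shares rested on the length of the lists. When both lists were held to their 3504 strongest peaks, 49.6% of the pre-diapause peaks had a diapause peak and 50.4% of the diapause peaks a pre-diapause peak. Lists of equal length were not of equal strength, since the weakest peak retained had a −log10 q of 6.64 at pre-diapause and 2.05 at diapause.

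Peaks that were not called at the other stage mostly had no peak of that stage within 5000 bp. Only 18 of the 4604 pre-diapause peaks without a partner lay within 500 bp of a diapause peak, and 414 (8.99%, 8.18–9.86) lay within 5000 bp. A further 552 were on scaffolds with no diapause peak at all. For the rest, where the scaffold had one, the median distance to the nearest diapause peak was 36.2 kb. Among the 854 diapause peaks without a partner, 21 lay within 500 bp of a pre-diapause peak, 150 (17.6%, 15.1–20.3) within 5000 bp, and 53 on scaffolds with none. Where the scaffold had one, their median distance to it was 18.1 kb. Where 2 diapause peaks met the same pre-diapause peak, they were at least 622 bp apart. In the reverse case the 2 pre-diapause peaks were at least 549 bp apart. A flank closer than this to a kept peak may have been called as part of it. The counts within 500 bp therefore cannot tell flanks from separate places.

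Kept peaks were wider than peaks that were not called, at both stages. The median width of pre-diapause peaks was 698 bp (674–721) when kept and 478 bp (470–486) when not called. At diapause it was 556.5 bp (540–570) and 439.5 bp (420–462). The narrowest peak was 303 bp at pre-diapause and 306 bp at diapause, and 28.2% and 30.4% of the lists were at most 400 bp wide. Not-called peaks therefore crowded towards the smallest width in the lists, and their 10th percentile of width was 317 bp at pre-diapause and 312 bp at diapause.

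The share kept rose with width, apart from 2 small steps down at diapause, from 74.6% (70.9–78.0) at 400 to 500 bp to 73.5% in the next class and from 98.7% at 1500 to 2000 bp to 97.7%. At pre-diapause it was 20.7% (18.9–22.5) for peaks up to 400 bp, 37.0% (34.5–39.6) between 500 and 700 bp, 53.9% (50.3–57.4) between 1000 and 1500 bp, and 76.7% (65.4–85.8) over 3000 bp. At diapause the same classes gave 66.5% (63.6–69.4), 73.5% (70.2–76.5), 90.6% (86.7–93.6) and 100% (87.7–100). A wide peak has more bases with which to touch another, so the share was also taken by whether the midpoint of the peak was covered, a rule added after the data were seen. By that rule the pre-diapause share rose from 20.3% (18.6–22.1) to 43.2% (39.6–46.7) at 1000 to 1500 bp and was 35.1% (29.6–40.9) and 39.1% (31.5–47.1) in the next 2 classes, and 49.3% (37.4–61.3) over 3000 bp. By midpoints the pre-diapause share was thus no higher at 1500 to 3000 bp than at 1000 to 1500 bp, while at diapause the midpoint share went on rising, to 94.7% (86.9–98.5) at 1500 to 2000 bp.

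**Figure D1:**
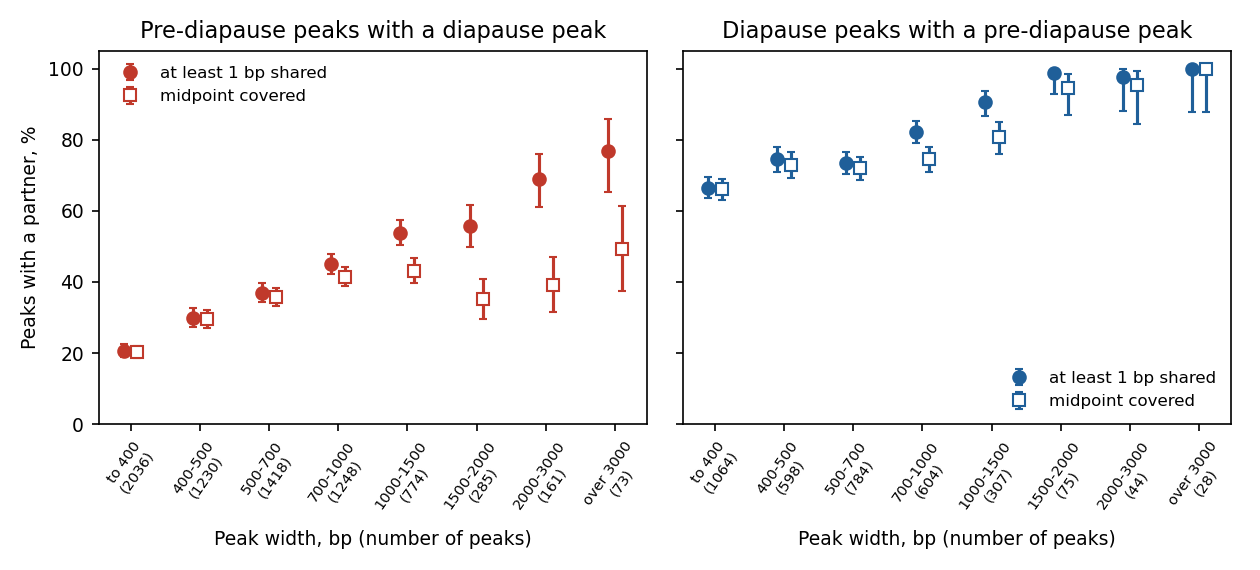
Share of H3K9me3 peaks with a partner at the other stage, in percent, by peak width in bp, for pre-diapause peaks (left) and diapause peaks (right). Filled circles count any shared base, open squares a covered midpoint, and bars are exact 95% intervals. At pre-diapause the circles climb from 20.7 to 76.7%, and the squares over 1000 bp lie between 35.1 and 49.3%.

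Width and strength of the call went together with keeping, each within classes of the other. Each list was divided into 3 equal parts of strength by the authors' −log10 q, the significance of a peak against its background. In the strongest part at pre-diapause 28.5% (24.4–33.0) of peaks up to 400 bp were kept and 78.2% (74.8–81.4) of those over 1000 bp. In the weakest part the same widths gave 16.9% (14.2–19.8) and 23.7% (19.1–28.7). At diapause the strongest part ran from 75.6% (71.1–79.6) to 96.8% (93.2–98.8) over these widths and the weakest from 53.1% (46.8–59.3) to 83.3% of 90 peaks. The intervals of narrow strong and of wide weak pre-diapause peaks thus overlapped.

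Paired peaks were mostly wider at pre-diapause. In 2565 places 1 pre-diapause peak met exactly 1 diapause peak. The pre-diapause peak was the wider in 1854 of them, or 72.3% (70.50–74.01), the diapause peak in 701, and 10 were equal. The median ratio of pre-diapause to diapause width was 1.14 (1.12–1.16), with medians of 689 and 553 bp. In 288 pairs the pre-diapause peak was at least 2 times as wide as its partner, and in 59 pairs the diapause peak was. The diapause peak lay wholly inside the pre-diapause peak in 1203 pairs (46.9%), and the reverse held in 259. Pairs were nevertheless centred closely, with midpoints a median of 51.5 bp apart. Widths of partners were correlated across pairs, with a Spearman rho of 0.64, and the folds less so, with 0.54. These correlations are over peaks of 1 library a stage and are a description only.

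The same shape was seen in other pairs of lists. For H3K27me3 the pre-diapause peak was the wider in 71.5% (69.8–73.1) of 2937 pairs with diapause, with a median ratio of 1.13 (1.11–1.14). Between non-diapause and pre-diapause H3K9me3, the pre-diapause peak was the wider in 2510 of 3642 pairs. The difference between the marks was not tested, and pre-diapause had the wider partner in each of these 3 comparisons.

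**Figure D2:**
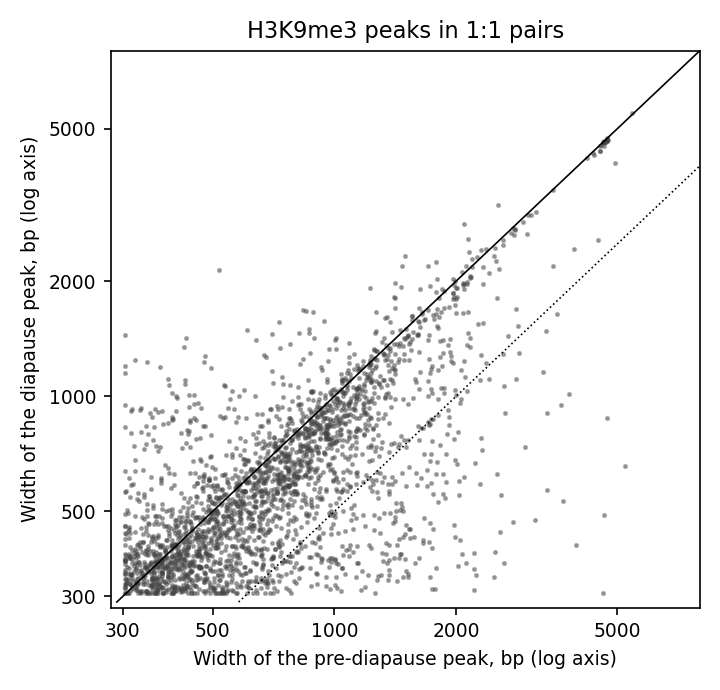
Width in bp of the pre-diapause peak (x, log axis) and the diapause peak (y, log axis) in the 2565 places where 1 peak met 1 peak, a point per place. The solid line marks equal width and the dotted line a pre-diapause peak 2 times as wide. Most points lie under the solid line, 288 of them on or under the dotted one, and a tight knot lies on the solid line between 4500 and 4800 bp.

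Wide pre-diapause peaks often touched a diapause peak, and the diapause partner was often far narrower. Peaks over 2000 bp numbered 234 at pre-diapause and 72 at diapause, or 3.24% and 2.05% of the lists. Of the 234, 67 had no diapause peak, 137 had 1 and 30 had 2, so that 71.4% (65.1–77.1) were kept. The share fell below a majority, to 42.3% (35.9–48.9), when the midpoint had to be covered, and to 44.0% (37.6–50.6) when 50% of the peak had to be. The single partners had a median width of 1814 bp and ranged from 306 to 5485 bp, with 60 themselves over 2000 bp and 38 under 1000 bp. Diapause peaks covered 46.9% of the bases of the 234 wide peaks. Of the 72 wide diapause peaks 71 were kept, and pre-diapause peaks covered 94.8% of their bases. Wide peaks had low folds for their lists, with a median at percentile 40.9 at pre-diapause and percentile 10.7 at diapause, where a percentile is the share of the list with an equal or lower fold. Fold here is the authors' enrichment over background, given as 1 value for the whole peak, and it is read only within a list.

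The widest pre-diapause peak, 7464 bp at NW_021132152.1 975574–983037, had no peak in any other list. Its fold was 3.47, at percentile 54.6 of the list, with a −log10 q of 5.03. The next, 6596 bp at NW_021137791.1 347265–353860, had a fold of 3.31 and no diapause H3K9me3 peak either. Its place had 2 non-diapause H3K9me3 peaks, a pre-diapause H3K27me3 peak of 6543 bp and 2 diapause H3K27me3 peaks, the stronger with a fold of 1.75. The other 3 of the 5 widest, of 6560, 6258 and 6023 bp, were each met by 2 diapause peaks.

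Splitting of a peak into several was rare and never went beyond 2 pieces. A set of 38 pre-diapause peaks was met by 2 diapause peaks each, and 9 diapause peaks were met by 2 pre-diapause peaks. The 38 had a median width of 2322 bp, from 1526 to 6560 bp, and the diapause pieces covered a median of 51.7% of them, from 20.0 to 69.5%. The gap between the pieces was 622 bp at least, 872.5 bp in the median and 2560 bp at most. In the other direction the 9 diapause peaks had a median width of 1643 bp and gaps of 549 to 774 bp. Already at non-diapause 8 of the 38 places had more than 1 H3K9me3 peak, 23 had 1 and 7 had none. Among all kept pre-diapause peaks 71.5% met a non-diapause H3K9me3 peak. For comparison, 30 pre-diapause H3K27me3 peaks were met by 2 diapause H3K27me3 peaks and 20 the other way round, a difference from H3K9me3 that was not tested. Among H3K9me3 peaks, 53 pre-diapause peaks were met by more than 1 non-diapause peak. The reverse held for 14 non-diapause peaks. The number of pre-diapause peaks met by 2 diapause peaks fell from 38 to 21 with a −log10 q of at least 3 in every list. Under the midpoint rule 2 of the 38 and 3 of the 9 counted as kept, since the midpoint of the others lay in no peak of the other stage.

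The 5 widest of the split peaks show how the pieces lay. At NW_021133039.1 674925–681484 the pre-diapause peak of 6560 bp was met by diapause peaks of 999 and 1487 bp, 2468 bp apart, with folds of 1.99 and 1.83. At NW_021133322.1 1123–7380 the pieces were 1073 and 3251 bp wide and 69.1% of the peak was covered. This place also had 2 non-diapause peaks.

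At NW_021131398.1 46284–52306 the pieces of 908 and 446 bp both lay in the left part of a 6023 bp peak, of which 22.5% was covered. Non-diapause heads had 3 peaks there. At NW_021133039.1 644871–650093 pieces of 360 and 1115 bp lay 2560 bp apart. At NW_021135148.1 93220–97385, with a high pre-diapause fold of 5.20, a non-diapause peak of nearly full width stood at the place before, and the diapause pieces of 822 and 1398 bp had folds of only 1.55 and 1.80 in their own list. It was the only 1 of these 5 places with a diapause H3K27me3 peak, which was unbroken and 2181 bp wide.

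**Figure D3:**
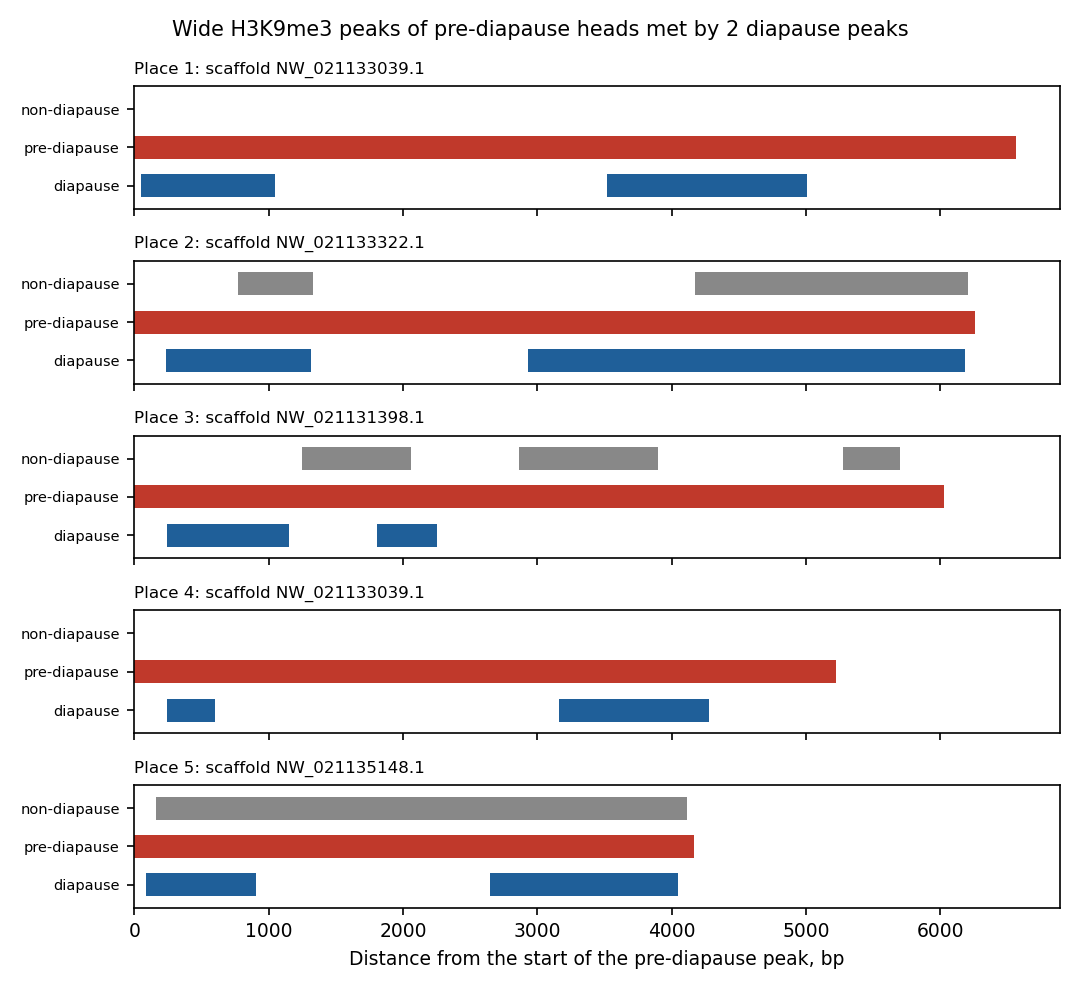
Extent of H3K9me3 peaks at the 5 widest pre-diapause peaks met by 2 diapause peaks, as distance in bp from the start of the pre-diapause peak, with 1 row a stage. Each bar is a called peak. The diapause bars leave gaps of 654 to 2560 bp inside the pre-diapause bar, and places 1 and 4 have no non-diapause bar.

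Joining in the other direction was of smaller size. The widest diapause peak met by 2 pre-diapause peaks, 2279 bp at NW_021130254.1 382704–384982, had pieces of 1308 and 334 bp 609 bp apart, with a single H3K9me3 peak at non-diapause. The diapause peak of 2108 bp at NW_021135007.1 37283–39390 had pieces of 1356 and 330 bp and no H3K27me3 peak at any stage. At NW_021133398.1 132356–134147 pre-diapause pieces of 523 and 336 bp stood in a 1792 bp diapause peak, and the pre-diapause H3K27me3 peak at that place, 1917 bp wide, was unbroken.

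A stretch of scaffold NW_021133039.1 held both of the split peaks named on it and was H3K9me3 territory almost alone. From 621842 to 698796 there were 12 pre-diapause peaks covering 24.6 kb and 12 diapause peaks covering 12.9 kb. Of these, 8 and 11 had a partner at the other stage, against 36.3% and 75.6% of the whole lists. The median width was 1543.5 bp at pre-diapause and 881 bp at diapause. Over all pre-diapause peaks of 1500 to 2000 bp 55.8% were kept, and over all diapause peaks of 700 to 1000 bp 82.3%. Folds in the stretch were low, 1.84 to 2.58 and 1.56 to 2.29. Non-diapause heads had 1 H3K9me3 peak there, and H3K27me3 had 1 peak at pre-diapause, with a fold of 1.26, and 0 at the other stages. The stretch was chosen after its values were seen.

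A group of wide peaks had nearly the same width at scattered places and hardly changed between the stages. In bins of 200 bp, the diapause list had 13 peaks between 4600 and 4800 bp, 4 in each of the 2 bins before, 0 from 3600 to 4000 bp and 0 from 4800 to 5000 bp. The pre-diapause list had 18 peaks between 4600 and 4800 bp, 5 in each of the 2 bins before and 1 in the bin after. Taking 4500 to 4800 bp, bounds set after the widths were seen, there were 17 diapause peaks on 16 scaffolds and 22 pre-diapause peaks on 21. All 17 diapause peaks had a pre-diapause partner within the same bounds, and widths of partners differed by a median of 24 bp, from 12 to 129 bp. Neither edge was displaced by more than 76 bp in any of the 17 pairs.

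These 17 places had low folds and high significance for the diapause list. Diapause folds ran from 1.61 to 1.88, with a median at percentile 8.42 of the list. The other 55 diapause peaks over 2000 bp had a median at percentile 13.4. In the group −log10 q ran from 9.24 to 22.4 with a median of 10.6, against 5.37 over the list. The median over all 28 diapause peaks wider than 3000 bp, the group included, was 11.1. Each of the 17 had an H3K9me3 peak at non-diapause too, in 11 places more than 1, and the widest there measured 2832 bp in the median, from 2517 to 4419 bp. All 17 also had H3K27me3 peaks at all 3 stages. Over all diapause peaks, 57.9% met a non-diapause H3K9me3 peak. H3K27me3 peaks of non-diapause, pre-diapause and diapause heads were met by 44.2%, 60.0% and 49.9% of them. Of the other 55 diapause peaks over 2000 bp, 54 had a pre-diapause partner and 39 a diapause H3K27me3 peak. Of the 5 widest diapause peaks 4 belong to the group, and they lie at NW_021133398.1 502697–507429 (4733 bp, fold 1.64), NW_021137710.1 110050–114750 (4701 bp, 1.67), NW_021135547.1 201428–206115 (4688 bp, 1.88) and NW_021136920.1 83632–88315 (4684 bp, 1.67). At these 4 the pre-diapause widths were 4717, 4722, 4706 and 4731 bp, and the widest non-diapause peaks 3608, 2882, 3470 and 2806 bp. Of the 22 pre-diapause peaks, the 5 outside the pairs had diapause partners of other widths. The narrowest of these measured 306 bp, at NW_021136438.1 23986–28587, where the pre-diapause fold of 5.30 stood well above the group's median of 2.15.

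The widest diapause peak of all was no member of the group. It measured 5485 bp at NW_021134071.1 255325–260809 with a fold of 14.1, at percentile 99.9, and a −log10 q of 193, the highest in the list. Its partners measured 5435 bp at pre-diapause, with a fold of 5.30, and 5396 bp at non-diapause, with 5.13. H3K27me3 peaks there were 5440 bp wide at pre-diapause and 5464 bp at diapause, and at non-diapause there were 2, the stronger 965 bp wide.

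**Figure D4:**
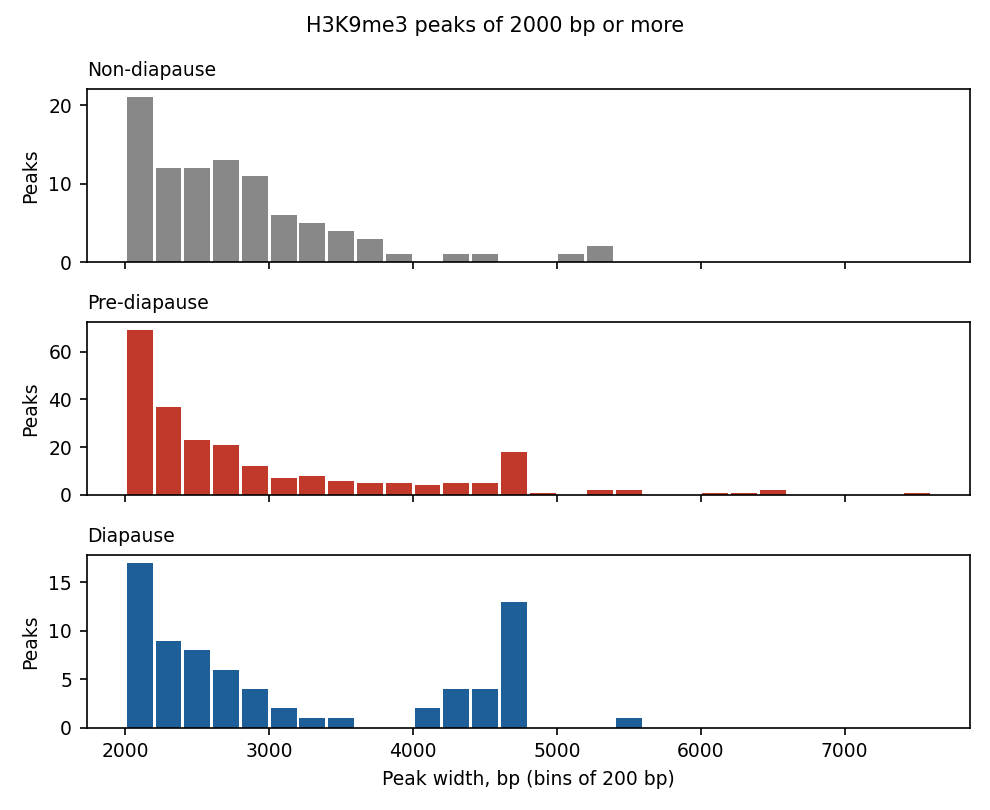
Number of H3K9me3 peaks (y) by width in bins of 200 bp (x) for peaks of 2000 bp or more at non-diapause, pre-diapause and diapause; each panel has its own y scale from 0. The bin from 4600 to 4800 bp holds 0, 18 and 13 peaks in that order.

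The 8 pre-diapause peaks highest in fold without a diapause peak had been called at non-diapause already, and with both marks. Over all pre-diapause peaks 51.5% met a non-diapause H3K9me3 peak and 40.2% a non-diapause H3K27me3 peak. At NW_021134144.1 486505–487597 the pre-diapause fold was 17.8 and the non-diapause fold 5.60, and at NW_021130637.1 391159–391771 they were 11.7 and 5.52. At NW_021131654.1 41785–42388 they were 10.4 and 4.38, at percentiles 99.3 and 78.3 of their lists. At the remaining 5, on NW_021131933.1, NW_021137822.1, NW_021131648.1, NW_021135502.1 and NW_021137764.1, the fold was at percentile 99.3 or higher in both lists. H3K27me3 was called at both early stages at all 8 places and at diapause at 2 of them, on NW_021135502.1 and NW_021137764.1. Over all pre-diapause peaks 59.6% met a pre-diapause and 34.4% a diapause H3K27me3 peak.

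Strong diapause peaks that were not called at pre-diapause were of mixed history. The first, at NW_021134528.1 77–641, had a fold of 7.78, at percentile 99.7, after 7.72 at non-diapause. The other 7 of the 8 highest were at percentiles 95.2 to 97.9. The second, at NW_021137676.1 311243–311597, had a fold of 5.45 and, at both earlier stages, an H3K27me3 and no H3K9me3 peak.

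The other 6 of these 8 had folds of 4.68 to 4.94 and widths of 363 to 451 bp. NW_021132396.1 11287–11698, NW_021135434.1 95184–95580 and NW_021133349.1 251–613 had non-diapause H3K9me3 peaks, with folds of 4.34, 3.88 and 4.63. NW_021137210.1 476–856 had H3K27me3 at pre-diapause alone, and NW_021136115.1 308718–309168 at diapause alone. NW_021137919.1 639655–640045 had no peak in any other list. Of the 8 places 5 had an H3K27me3 peak at pre-diapause. The share was 60.0% over all diapause H3K9me3 peaks and 24.7% over the 854 not called at pre-diapause. A non-diapause H3K9me3 peak lay at 57.9% of all diapause peaks and at 17.4% of the 854.

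The 6 pairs that ranked highest at both stages had peaks of both marks at all 3 stages, and 5 of them were 882 bp wide or less. Among all kept pre-diapause peaks, 71.5% met a non-diapause H3K9me3 peak. H3K27me3 peaks of non-diapause, pre-diapause and diapause heads were met by 56.0%, 72.1% and 58.7% of the kept peaks. Ranked by the lower of the 2 fold percentiles, the first pair was NW_021134443.1 97597–98229. Its folds were 18.6 at pre-diapause and 9.96 at diapause, and its widths 633 and 616 bp. NW_021137400.1 161046–161860 had 11.6 and 7.79, NW_021137592.1 43633–44204 had 10.9 and 8.93, and NW_021134566.1 86865–87746 had 9.88 and 8.63. At NW_021132339.1 5–530 the folds were 16.7 and 6.41, and the diapause H3K27me3 fold was 16.3. The exception in width was NW_021131699.1 18940–20638, 1699 bp wide at pre-diapause and 582 bp at diapause (19010–19591), with folds of 13.2 and 14.9. Its H3K27me3 peak narrowed alike, from 1564 to 572 bp.

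By rank within each list, peaks of high rank at diapause seldom had a partner of low rank at pre-diapause, and the reverse was more frequent. The ranks are not alike, since the top 10% by fold was 723 peaks at pre-diapause and 351 at diapause. Kept peaks also differed in rank, with a median fold at percentile 58.6 at pre-diapause and 50.6 at diapause. How far this makes the asymmetry was not tested. Among the one-to-one pairs, 322 held a diapause peak in the top 10% of its list by fold. The pre-diapause partner was in the lower 50% of its own list in 11 of them, or 3.42% (1.72–6.03). Of the 432 pairs with a pre-diapause peak in the top 10%, 151 had a diapause partner in the lower 50%, or 35.0% (30.5–39.7). In 140 pairs both partners were in the top 10%, which was 43.5% (38.0–49.1) of the 322 and 32.4% (28.0–37.0) of the 432. Counting all peaks, 284 of the 723 pre-diapause peaks in the top 10% by fold, or 39.3% (35.7–42.9), had no diapause peak, against 53.6% (49.9–57.3) in the lowest 10%. For diapause peaks the shares without a partner were 7.98% (5.37–11.3) and 15.4% (11.8–19.6).

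Kept peaks had a history at non-diapause more often than peaks that were not called at the other stage. Over all pre-diapause peaks 51.5% overlapped a non-diapause H3K9me3 peak. The share was 71.5% (69.7–73.2) among the 2621 kept and 40.1% (38.7–41.6) among the 4604 not called at diapause. With lists of equal length these shares were 76.1% and 57.7%, so that a majority of the not-called peaks then had a history too. That setting also cut the non-diapause list from 4483 to 3504 peaks, and its pre-diapause peaks had a −log10 q of at least 6.64. How far the change of members made the shift was not tested. Over all diapause peaks as deposited the share with a non-diapause peak was 57.9%. It was 71.0% (69.2–72.7) of the 2650 kept and 17.4% (15.0–20.2) of the 854 not called at pre-diapause. Read as histories, 1874 pre-diapause peaks were called at all 3 stages and 1848 at the 2 earlier stages and no longer at diapause. Another 747 were called from pre-diapause on, and 2756 at pre-diapause alone of the 3. Among diapause peaks, 705 were called at diapause alone and 149 at non-diapause and diapause but not between.

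The histories differed in width and rank. Pre-diapause peaks called at all 3 stages had a median width of 754 bp (728–781) and a median fold at percentile 72.0. Those dropped after pre-diapause had 527.5 bp (509–541) and percentile 65.1, and those of pre-diapause alone 445 bp (433–456) and percentile 35.2. Peaks called from pre-diapause on were wider, at 562 bp (535–610), but ranked lowest in fold, at percentile 21.1. The tie of keeping to history was also there within the 3 parts of strength. Within the strongest part of the pre-diapause peaks, 61.3% (59.1–63.5) of those with a non-diapause peak and 36.5% (32.4–40.7) of those without were kept. In the weakest part the shares were 33.8% (30.1–37.8) and 15.1% (13.5–16.8). At diapause they were 95.8% (94.2–97.0) and 63.9% (58.1–69.4) in the strongest part.

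H3K27me3 peaks lay more often at kept than at not-called peaks. Over all pre-diapause H3K9me3 peaks 59.6% overlapped a pre-diapause and 34.4% a diapause H3K27me3 peak. Among kept peaks these shares were 72.1% (70.3–73.8) and 58.7% (56.8–60.6), and among peaks not called at diapause 52.5% (51.1–54.0) and 20.5% (19.4–21.7). Over all pre-diapause H3K9me3 peaks 40.2% met a non-diapause H3K27me3 peak, with 56.0% (54.0–57.9) of the kept and 31.1% (29.8–32.5) of the not called. In counts, of the 4604 H3K9me3 peaks not called at diapause 1549 had H3K27me3 at pre-diapause and not at diapause, 870 had it at both stages, 75 at diapause alone and 2110 at neither. H3K27me3 at diapause and not at pre-diapause was rare in both classes of pre-diapause peaks. It lay at 1.63% (1.28–2.04) of the 4604, 3.24% of the kept and 2.21% of all pre-diapause peaks. Among the 854 diapause peaks not called at pre-diapause the share was 11.2% (9.20–13.6), against 5.22% of all diapause peaks. Of the 75 places among the 4604, 58 had no H3K27me3 peak at non-diapause either. Over all 4604 such a peak was present at 31.1%. Peaks that met none of the other lists, diapause H3K9me3 left aside, made up 41.0% (39.5–42.4) of the 4604, 18.7% of the kept and 32.9% of all pre-diapause peaks.

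Non-diapause history and H3K27me3 went together. Pre-diapause H3K9me3 peaks with a non-diapause H3K9me3 peak overlapped pre-diapause H3K27me3 in 90.0% (88.5–91.3) of the kept and 87.4% (85.8–88.9) of the not called. Without such a history the shares were 27.2% (24.0–30.5) and 29.2% (27.5–30.9). At diapause 74.1% (72.1–76.1) of the kept peaks with a history still met an H3K27me3 peak, against 39.8% (37.6–42.1) of those dropped. Among the 854 diapause peaks not called at pre-diapause, 24.6% (21.7–27.6) had H3K27me3 at diapause and 24.7% (21.8–27.7) at pre-diapause, against 49.9% and 60.0% over all diapause peaks. A non-diapause H3K27me3 peak lay at 9.95% (8.03–12.2) of them and at 55.2% (53.3–57.2) of the kept diapause peaks, against 44.2% over all. In 59.1% (55.8–62.5) of them none of the other lists, pre-diapause H3K9me3 left aside, had a peak, against 29.0% of all diapause peaks.

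**Figure D5:**
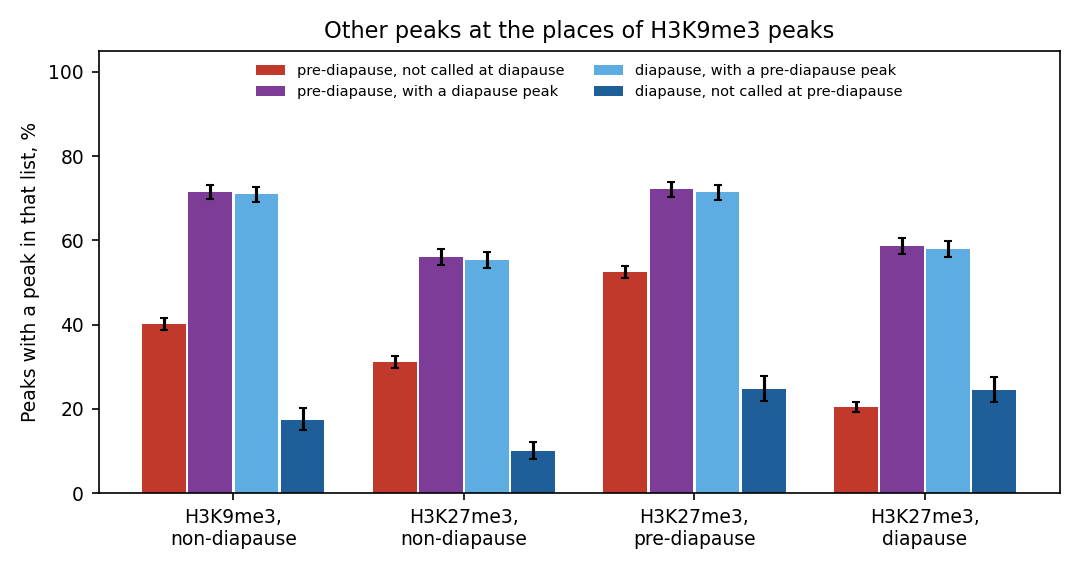
Share, in percent, of H3K9me3 peaks that overlapped a peak of 4 other lists, for pre-diapause and diapause peaks that were kept or not called at the other stage, with exact 95% intervals. Kept peaks of either stage stand at 55.2 to 72.1%, and diapause peaks without a pre-diapause partner at 9.95 to 24.7%.

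Peaks of both classes were spread thinly over the scaffolds. Peaks lay on 1305 scaffolds at pre-diapause and 1016 at diapause, of which 970 were shared, 335 had peaks at pre-diapause alone and 46 at diapause alone. The 335 held 552 peaks, 230 of them with a single one and none with more than the 12 of NW_021131498.1. The 46 held 53 peaks, at most 4 on one scaffold. The 10 scaffolds with 30 or more pre-diapause peaks held 4.71% of all pre-diapause peaks and 4.65% of those not called at diapause. The 13 scaffolds with 15 or more diapause peaks held 6.25% of all diapause peaks and 5.62% of those not called at pre-diapause. Peaks not called at diapause occurred on 1135 scaffolds and diapause peaks not called at pre-diapause on 533.

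The share kept ranged widely between scaffolds. Each scaffold had few peaks, so counting error was large, and whether the spread went beyond it was not tested. On the 45 scaffolds with at least 20 pre-diapause peaks, 13.6 to 60.0% were kept, with a median of 35.0%. The lowest were NW_021132550.1, with 3 of 22 kept, and NW_021130933.1, with 3 of 20. The highest was NW_021133039.1, the scaffold of the split peaks, with 15 of 25. On the 59 scaffolds with at least 10 diapause peaks, the share kept was lowest on NW_021132157.1, at 5 of 10, and 3 scaffolds kept all.

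The most pre-diapause peaks without a diapause peak lay on NW_021134484.1, with 27 of 41, then NW_021131371.1 with 25 of 49 and NW_021132293.1 with 25 of 32. NW_021131019.1 had 22 of 29. NW_021130455.1, with 21 of 31, was tied at 21 with NW_021130637.1 and NW_021134361.1. NW_021130455.1 and the 4 before it are among the scaffolds with most peaks, and their spans to the last peak in any list were 1.40 to 2.23 Mb. In the other direction NW_021130308.1 had 6 of 18, NW_021130637.1 had 6 of 15 and NW_021137852.1 had 6 of 9 diapause peaks without a pre-diapause peak. NW_021130774.1 had 5 of 9, and NW_021130868.1 had 5 of 6, in a scaffold with 8 pre-diapause peaks of which 1 was kept. A total of 11 scaffolds had 5 such peaks, and these 2 came first by name.

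More peaks were called at pre-diapause than at diapause on 1056 scaffolds, fewer on 90 and equal numbers on 205. Of the 90, 12 had at least 5 diapause peaks. Peaks starting within 1000 bp of a scaffold's first base were kept at much the same rate as others. At pre-diapause 34.9% (28.5–41.8) of 209 such peaks were kept and 36.3% (35.2–37.5) of the rest. At diapause the shares were 71.6% (61.4–80.4) of 95 and 75.7% (74.3–77.2).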

How the data were processed

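The series has 9 samples: H3K9me3, H3K27me3 and input at 3 stages, with 1 broad-peak list for each of the 6 immunoprecipitated samples. The 3 inputs were not analysed here. Per the submitters' processing notes, which give no versions, the tools were MACS2, Bowtie2, Picard, deepTools and ChIPseeker. The genome build, the use of the input and any pooling of libraries are not given in the sources used here. The 9 columns have no header and were read as the MACS2 broad-peak layout. The deposited score equalled the integer part of 10 times the −log10 q, except in 6 of 29330 peaks. The deposited fold is a ratio of library to background, and the deposited −log10 p and q are the authors' p-values and q-values for each peak. Fold and −log10 q were used only within a list. Starts were shifted to count from 1.

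Peaks of the NC_ sequence were removed. Overlaps, widths and distances were computed with Python 3.11.15, numpy 2.4.6, pandas 2.3.3, scipy 1.17.1 and matplotlib 3.10.9, and the overlap procedure was checked on simulated data. The gene table held 17154 genes, of which 0 were placed on a named sequence, so gene lists could not be used. Named were the 8 peaks highest in fold without a partner in each direction, the 6 pairs highest in the lower of both percentiles, the 5 widest of each list, the 5 pre-diapause and 3 diapause peaks met by most partners, and the 5 scaffolds with most peaks without a partner in each direction. Peaks named otherwise are said to be chosen after their values were seen. The comparison, the rules and the alternatives were chosen with earlier results of these data known. Depth is unknown for every list.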

Additional observations from a re-analysis of the deposited data

Results flagged for a closer look

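The sequence with the NC_ name, left out of every comparison, carried a single H3K9me3 peak at both stages. The pre-diapause peak covered 99.8% of the span of 14536 bp reached by any peak there, with a fold of 5.62 that 670 peaks of its list exceeded. The diapause peak also covered 99.8%, with a fold of 10.5 that only 4 peaks of its list exceeded. These peaks are flagged as calls outside the comparisons, and they were the widest of both lists. Whether these calls reflect the mark was not tested.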

How the results depend on the processing

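A total of 14 values were recomputed under 5 settings fixed with the comparison and 1 added after the data were seen. Recomputing the shares with diapause H3K27me3 was not planned beforehand in any setting. The 14 values did not move beyond their counting interval, or counts beyond 1.5 times, with the NC_ sequence kept in or with partners within 500 bp. With a −log10 q of at least 3, the share kept was 34.9% at pre-diapause and 77.1% at diapause, 21 pre-diapause peaks were split, and 41.8% of the peaks not called at diapause had a non-diapause peak. With 50% of the peak covered, the shares kept were 31.3 and 72.4%, kept peaks were 1.27 and 1.15 times as wide in the median as not-called ones, and 21 peaks were split. History was then found for 66.3% of kept and 37.6% of not-called pre-diapause peaks, and diapause H3K27me3 for 54.7 and 18.2%. With covered midpoints, these values were 32.3 and 72.5%, 1.32 and 1.16, 2 split pre-diapause and 3 split diapause peaks, 67.8 and 37.9%, and 56.6 and 18.7%. With lists of equal length they were 49.6 and 50.4%, 1.62 and 1.14, 2 split diapause peaks, 76.1 and 57.7%, which turns the minority with a history among not-called peaks into a majority, and 65.6 and 29.3%. The 10 scaffolds with most not-called pre-diapause peaks then held 5.55% of them, against 4.82% as deposited, and 22.6% of the not-called diapause peaks had a non-diapause peak. As deposited the width ratios were 1.46 and 1.27. Kept peaks were the wider in each setting, and had a history and diapause H3K27me3 more often at pre-diapause; the causes of the shifts were not tested. Where the unequal lists gave most pre-diapause peaks no partner, equal lists gave an even split. In that setting the non-diapause H3K9me3 and diapause H3K27me3 lists were held to 3504 peaks too. No paired analysis was possible because each stage has 1 list. For the same reason no replicate could be left out, and unknown depth limits every share.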
